A study of Mus musculus with 2 samples.

Results

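The insulin and insulin-like growth factor (IGF) genes described here are 10 genes of pancreatic islets, taken by gene symbol from the deposited table of 17245 genes: the receptors Insr and Igf1r, the receptor substrates Irs1 and Irs2, the kinase Akt2, the ligand Igf2, and the binding proteins Igfbp3, Igfbp4, Igfbp5 and Igfbp7. All 10 had a value in both libraries and all 10 reached 1 FPKM in at least 1 library, the level at which a gene was kept for comparison. FPKM counts reads or fragments relative to gene length and library size, so levels can be set side by side between genes as far as the lengths behind them hold. The samples were hand-picked mouse islets held in culture medium, 1 library from mice labelled KO, which the series describes as cGASβKO, a knockout of the cytosolic DNA sensor cGAS in insulin-producing β-cells, and 1 library from WT mice. The sources used here give neither the number, age and sex of the mice nor the Cre driver and deleted exon of the knockout. With 1 library per genotype no difference has a replicate check, and no p-value is given.

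Insulin, IGF1 and IGF2 bind 2 related receptor tyrosine kinases, the insulin receptor and the IGF1 receptor, which phosphorylate the insulin receptor substrates. These recruit PI3-kinase, whose lipid product brings AKT to the membrane, where PDK1 activates it, and AKT in turn restrains FOXO transcription factors and the kinase GSK3 and relieves inhibition of the growth-regulating kinase mTOR. In mice this route, and IRS2 in particular, is known for its part in maintaining β-cell mass. IGF-binding proteins are secreted, hold IGFs outside the cell and set how much reaches the receptors.

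The genes lie on chromosomes 1, 5, 7, 8 and 11 of the RefSeq build GRCm38.p6. Insr spans chr8:3150922-3279649 and Irs2 chr8:10984681-11008929, both on the minus strand. Igf1r spans chr7:67952257-68233668 and Akt2 chr7:27591552-27640826, both on the plus strand, and Igf2 chr7:142650768-142666816 on the minus strand. Irs1 spans chr1:82233105-82291439 and Igfbp5 chr1:72858065-72874865, both on the minus strand. Igfbp3 spans chr11:7206086-7215498 on the minus strand, Igfbp4 chr11:99040005-99052655 on the plus strand and Igfbp7 chr5:77349240-77408045 on the minus strand.

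Library totals that turn the values into whole reads were 14537660 for KO and 19097001 for WT, and 98.9% of the 12428 kept genes came out whole. Ratios are given with exact 95% Clopper-Pearson intervals from these reads, which cover counting error only, since reads amplified by PCR are not independent molecules. Cgas, the targeted gene, was at 0.521 FPKM in the KO library, against 0.205 FPKM in WT, a ratio of 2.55 (1.35 to 4.98) from 31 and 16 reads. Islet cells other than β-cells keep the gene by design, and where these reads lie relative to the deleted part is not known. Because the targeted RNA was not lower, the knockout library is called the library labelled KO or the KO-labelled library, and every direction below is between libraries as labelled. The islet hormones were abundant, with the lowest of Ins1, Ins2, Gcg, Sst and Ppy, the somatostatin gene Sst, at 4512 FPKM in the KO-labelled library, against 2895 FPKM in WT.

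Among the 10 genes the 4 binding proteins were higher in the library labelled KO, by 1.44 to 2.12-fold as deposited, although Igfbp7 turned slightly lower once a trend on GC content and length was removed (log2 ratio -0.11), and Irs2, Igf1r, Irs1 and Akt2 were lower, with ratios of 0.522 to 0.781. Insr and Igf2 lay nearest to equality as deposited, but Insr turned slightly lower under 2 of 3 other scalings and stood at 0.45 with that trend removed. On the log2((KO + 1)/(WT + 1)) scale, which understates the change of low genes, 1 of 10 genes was at least 2-fold higher, Igfbp4, against a background of 6.98% of the 12428 kept genes. None was at least 2-fold lower, against a background of 3.88%. The counting interval of the ratio lay above 1 for 5 genes and below 1 for 4 genes, against backgrounds of 42.2% and 34.2% of 12295 genes with whole reads. Both shares are near the background, so the counts do not set the 10 genes apart from genes in general. Their median log2 ratio was -0.0040, against 0.077 for all kept genes.

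**Figure D1:**
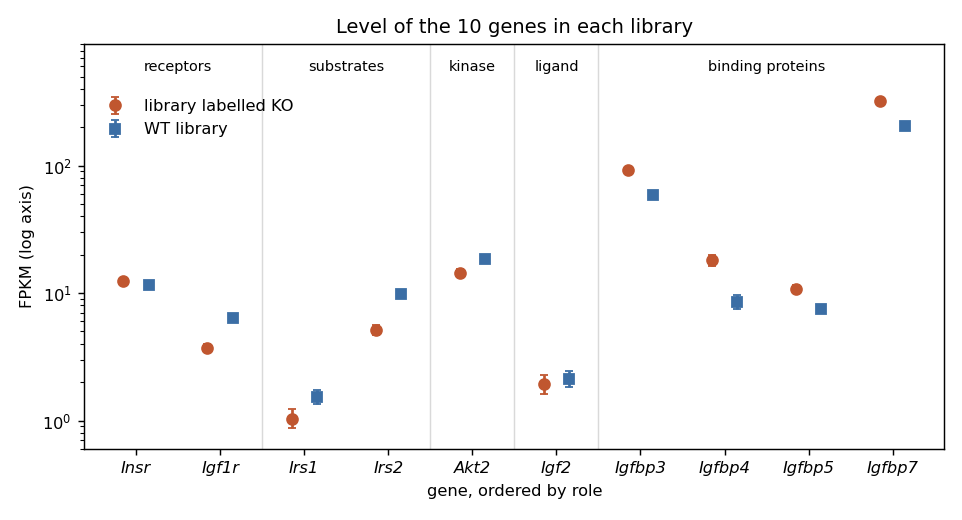
FPKM of the 10 genes, ordered by role, in the library labelled KO (circles, left of each pair) and the WT library (squares), on a log axis, with exact 95% Poisson intervals of the reads, mostly hidden by the symbols. The binding proteins Igfbp7 and Igfbp3 stand highest in both libraries and Irs1 lowest, at 1.04 FPKM in the KO-labelled library, against 1.53 FPKM in WT.

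Levels spanned more than 2 orders of magnitude. As deposited, the order in the library labelled KO was Igfbp7, Igfbp3, Igfbp4, Akt2, Insr, Igfbp5, Irs2, Igf1r, Igf2 and Irs1, and every neighbouring pair differed beyond the counting intervals of the levels. In the WT library the order was Igfbp7, Igfbp3, Akt2, Insr, Irs2, Igfbp4, Igfbp5, Igf1r, Igf2 and Irs1, and the intervals of the neighbours Irs2 and Igfbp4, and of Igfbp4 and Igfbp5, overlapped. These levels rest on gene lengths implied by the values, which differ from the longest annotated transcript for some genes, most for Igfbp4 (1621 against 3831 bases) and Igfbp3 (4022 against 2421 bases). Per annotated length, an alternative chosen after seeing the data, Igfbp4 was at 7.65 FPKM in the KO-labelled library, against 3.61 FPKM in WT, which put it in place 6 of the order in the KO-labelled library and place 8 in WT. Igfbp3 was at 153 FPKM in the KO-labelled library, against 97.8 FPKM in WT, still below Igfbp7. The length cancels in every ratio between the libraries. Igfbp7 was the 103rd highest of all kept genes in the library labelled KO and the 144th in the WT library. Irs1 was near the floor in both, at percentile 2.34 of kept genes in the KO-labelled library, against 12.4 in WT.

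Igf1r was lower in the library labelled KO and Insr was not. Insr, the insulin receptor, was at 12.4 FPKM in the KO-labelled library, against 11.6 FPKM in WT, a ratio of 1.07 (1.00 to 1.14), and its log2 ratio of 0.087 turned to -0.049 and -0.052 under 2 other scalings and stood at 0.45 once the trend on GC content and length was removed. Igf1r, the receptor for IGF1 and IGF2, was at 3.70 FPKM in the KO-labelled library, against 6.33 FPKM in WT, a ratio of 0.584 (0.534 to 0.639), with a log2 ratio of -0.64, or -0.40 with that trend removed. A ratio of both genes within a library does not depend on how the libraries are scaled. Insr exceeded Igf1r 3.35-fold in the KO-labelled library (3.07 to 3.67), against 1.83-fold in WT (1.72 to 1.96), or 2.96-fold and 1.62-fold per annotated transcript length. That proportion was thus 1.83 times as large in the library labelled KO, with an interval from counting variance on the log scale of 1.64 to 2.04.

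Other receptors of the family were measured beside them. Igf2r, which carries IGF2 to lysosomes for breakdown and has no kinase, was at 8.12 FPKM in the KO-labelled library, against 15.4 FPKM in WT, a ratio of 0.528 (0.491 to 0.567). Igf1r relative to Igf2r was 0.456 in the KO-labelled library, against 0.412 in WT (0.516 and 0.466 per annotated length), and the interval of the ratio between libraries, 0.987 to 1.24, included 1. Insrr, the insulin receptor-related receptor, which has no known insulin or IGF ligand, was far above both kinase receptors. It was at 179 FPKM in the KO-labelled library, against 106 FPKM in WT, a ratio of 1.69 (1.65 to 1.73), and exceeded Insr 14.4-fold and 9.09-fold in the same order of libraries. These values are as deposited. The log2 ratio of Insrr, 0.75, lay between the quartiles of genes over 54% GC (0.052 and 0.78), where its GC content of 57.4% places it. Against genes of its own length it lay above the upper quartile of 0.32. Its value with the GC and length trend removed is not reported here.

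Both receptor substrates were lower in the library labelled KO. Irs2, the substrate linked to β-cell survival and growth in mice, was at 5.11 FPKM in the KO-labelled library, against 9.80 FPKM in WT, a ratio of 0.522 (0.470 to 0.579). Its log2 ratio of -0.82 stood at percentile 6.63 of all kept genes, the lowest of the 10. Irs1, a substrate of the same family, was at 1.04 FPKM in the KO-labelled library, against 1.53 FPKM in WT, a ratio of 0.679 (0.549 to 0.837) from 138 and 267 reads. The log2 ratio of Irs1, -0.31, was -0.12 with the GC and length trend removed, at percentile 41.6 of all genes. Irs2 was then at -0.99, percentile 3.06, so the lower level of Irs1 was small by that measure. Irs2 exceeded Irs1 4.94-fold in the KO-labelled library (4.08 to 6.0), against 6.42-fold in WT (5.62 to 7.35), so Irs2 was the main substrate by RNA in both. The gene Gm9747 lies on the opposite strand over 30.9% of the exon length of Irs1 in the GENCODE M21 annotation, and strand settings are not given, so the value of Irs1 is less certain.

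The promoters of Irs1 and Irs2 are shown because both genes differed in the same direction, Irs1 only slightly once the GC and length trend was removed. They are RefSeq windows of GRCm38.p6, from 250 bases before to 50 bases after the gene's start, written 5′ to 3′ on the gene's minus strand. Irs1 is at chr1:82291390-82291689 and Irs2 at chr8:11008880-11009179. Capitals mark the GC box GGGCGG and the E-box CACGTG, searched on both strands.
Irs1: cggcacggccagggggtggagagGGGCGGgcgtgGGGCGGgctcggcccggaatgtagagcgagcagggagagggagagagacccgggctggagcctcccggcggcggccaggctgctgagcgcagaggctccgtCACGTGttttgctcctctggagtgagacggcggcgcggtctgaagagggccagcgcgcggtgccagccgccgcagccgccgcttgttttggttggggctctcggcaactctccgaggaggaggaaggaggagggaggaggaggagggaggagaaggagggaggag
Irs2: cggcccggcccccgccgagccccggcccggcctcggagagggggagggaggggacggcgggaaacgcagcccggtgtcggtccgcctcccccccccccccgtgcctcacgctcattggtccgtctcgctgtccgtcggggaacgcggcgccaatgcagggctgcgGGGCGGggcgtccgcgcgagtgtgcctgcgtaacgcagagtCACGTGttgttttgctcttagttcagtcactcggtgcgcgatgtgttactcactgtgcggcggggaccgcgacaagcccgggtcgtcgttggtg
The E-box starts at position -115 from the gene start in Irs1 and -44 in Irs2, within a shared run of 10 bases, gtCACGTGtt. Of all 32851 promoter windows 7.15% hold CACGTG and 35.7% hold GGGCGG, and among the 15 windows of the 10 genes, which cover 9 of them, Irs1 and Irs2 were the only holders of CACGTG. The C/EBP motif TTGCNNAA, present in 10.8% of all windows, and the forkhead motif TGTTTAC, present in 3.65%, were in none of the 15. A match is a description of letters, not a bound site, and an absence covers this window only.

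The kinase was lower in the library labelled KO and the ligand, as deposited, did not differ beyond counting error. Akt2, the AKT isoform tied most closely to insulin action on glucose metabolism, was at 14.5 FPKM in the KO-labelled library, against 18.6 FPKM in WT, a ratio of 0.781 (0.727 to 0.839), and its log2 ratio of -0.34 was -0.53 with the GC and length trend removed. Akt1, the isoform tied to cell growth, was more abundant, at 52.2 FPKM in the KO-labelled library, against 57.1 FPKM in WT. Akt2 relative to Akt1 was 0.277 in the KO-labelled library, against 0.325 in WT (0.312 and 0.365 per annotated length), 0.854 times as large (0.781 to 0.933). Igf2, a fetal growth factor expressed from the paternal allele in mice, was at 1.92 FPKM in the KO-labelled library, against 2.12 FPKM in WT, a ratio of 0.906 (0.725 to 1.13), so a difference could not be detected at this depth. The log2 ratio of Igf2, -0.095, was -0.30 with that trend removed, at percentile 28.1 of all genes. Igf1, the other IGF ligand, stayed under the floor, at 0.689 FPKM in the KO-labelled library, against 0.408 FPKM in WT. The annotated gene Gm49394 covers 62.8% of the exon length of Igf2 on the same strand, so the Igf2 value may hold reads of either.

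All 4 binding proteins were higher in the library labelled KO as deposited, and 3 of them, all but Igfbp7, also under every alternative tried. Igfbp7, which binds IGFs weakly and is abundant around small vessels, was at 323 FPKM in the KO-labelled library, against 206 FPKM in WT, a ratio of 1.57 (1.51 to 1.63). Igfbp3, the main carrier of IGFs in blood, was at 92.2 FPKM in the KO-labelled library, against 58.9 FPKM in WT, a ratio of 1.57 (1.50 to 1.63). As deposited these 2 genes stood in near-equal proportion, since Igfbp7 exceeded Igfbp3 3.50-fold in the KO-labelled library (3.37 to 3.64), against 3.49-fold in WT (3.35 to 3.64). The interval of the ratio between the proportions was 0.949 to 1.06. The genes differ in length and GC content, and with the trend on these removed Igfbp7 stood at -0.11 and Igfbp3 at 0.44, so the near-equal proportion held only as deposited.

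Igfbp4, a binding protein that mostly withholds IGFs from their receptors, was at 18.1 FPKM in the KO-labelled library, against 8.53 FPKM in WT, a ratio of 2.12 (1.81 to 2.48). Its log2 ratio of 1.00 lay just past the 2-fold limit and was 0.77 with a pseudocount of 5 FPKM or with the GC and length trend removed, and 0.86 to 0.92 under the 3 other scalings, so the call does not hold under those settings. Igfbp5, a binding protein that also attaches to extracellular matrix, was at 10.8 FPKM in the KO-labelled library, against 7.47 FPKM in WT, a ratio of 1.44 (1.31 to 1.58). Igfbp7 made up 72.7% of the summed FPKM of the 4 genes in the KO-labelled library, against 73.3% in WT, Igfbp3 20.8% and 21.0%, Igfbp4 4.07% and 3.04%, and Igfbp5 2.42% and 2.66%, each pair in the same order of libraries. These shares are of values as deposited. Part of Polr2b on the opposite strand covers 7.03% of the exon length of Igfbp7.

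The promoters of Igfbp4, the one gene past the 2-fold limit, and Igfbp7, the most abundant, are shown from the same RefSeq table. Igfbp4 is at chr11:99040994-99041293 on the plus strand and Igfbp7 at chr5:77407996-77408295 on the minus strand of GRCm38.p6. The start used for Igfbp4 in that table lies inside the gene span given above. Capitals mark the TATA box TATAAA and the GC box GGGCGG on either strand.
Igfbp4: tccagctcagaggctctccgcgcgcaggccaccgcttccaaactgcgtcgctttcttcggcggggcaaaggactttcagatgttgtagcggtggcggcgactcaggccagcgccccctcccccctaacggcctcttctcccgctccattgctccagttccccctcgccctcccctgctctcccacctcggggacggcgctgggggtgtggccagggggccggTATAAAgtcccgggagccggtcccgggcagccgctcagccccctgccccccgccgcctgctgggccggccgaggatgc
Igfbp7: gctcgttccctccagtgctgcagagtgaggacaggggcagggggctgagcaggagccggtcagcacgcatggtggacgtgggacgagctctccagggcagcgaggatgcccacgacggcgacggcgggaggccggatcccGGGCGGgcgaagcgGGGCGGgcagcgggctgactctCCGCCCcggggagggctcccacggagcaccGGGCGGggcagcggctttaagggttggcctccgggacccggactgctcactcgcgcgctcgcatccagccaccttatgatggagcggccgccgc
The TATA box of Igfbp4 starts at position -28 and was the only match to TATAAA in the 15 windows, against 13.6% of all windows. Igfbp7 holds the GC box 4 times, at -110, -96, -74 and -44, and Igfbp4 does not hold it. The 2 windows are rich in G and C, at 71.3% and 73.3%, against a median of 52.7% over all windows.

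**Figure D2:**
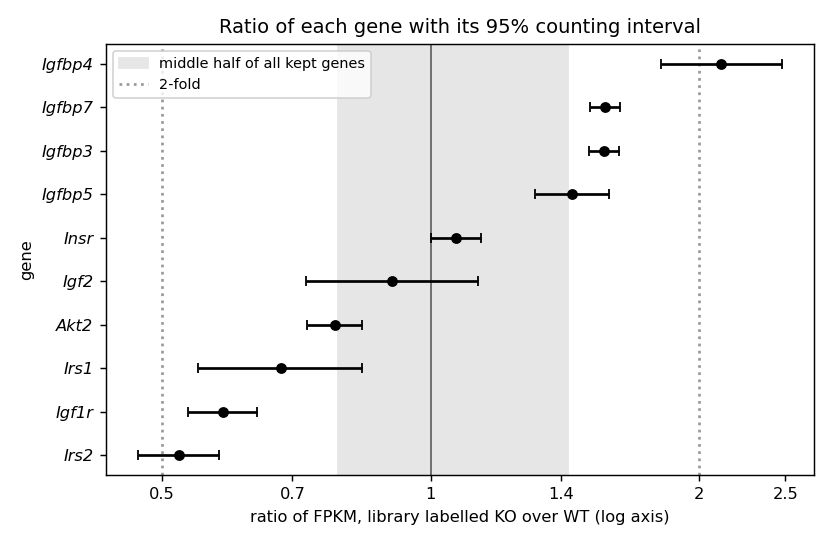
Ratio of FPKM in the library labelled KO over the WT library for each of the 10 genes on a log axis, with exact 95% counting intervals as bars, the span between the quartiles of all kept genes shaded (ratios of 0.787 to 1.42 on the FPKM + 1 scale) and 2-fold marked by dotted lines. The 4 binding proteins lie above 1 (Igfbp7 turned below it with the GC and length trend removed) and Irs2, Igf1r, Irs1 and Akt2 below it, while the interval of Igf2 spans 1.

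In islets, binding proteins are also made by vessel and stromal cells, so they were set beside marker lists of cell types. All 14 endothelial markers were higher in the library labelled KO, 7 of them at least 2-fold, with a summed level of 860 FPKM in that library, against 375 FPKM in WT, a ratio of 2.29. The most abundant were Plvap, a protein of the openings of fenestrated capillaries, at 284 and 110 FPKM, Emcn, an endothelial sialomucin, at 132 and 57.3 FPKM, and Eng, a TGF-β co-receptor, at 86.3 and 32.4 FPKM. All 13 kept markers of fibroblasts, stellate cells and pericytes were also higher, with 3 at least 2-fold and a summed level over 14 markers of 379 FPKM in the KO-labelled library, against 203 FPKM in WT, a ratio of 1.87. Sparc, a matrix-associated glycoprotein, was at 135 and 74.3 FPKM, and Rgs5, a pericyte regulator of G-protein signalling, at 84.7 and 46.8 FPKM, in the same order of libraries. No marker of either list was at 0. All 10 macrophage markers were higher too, 5 of them at least 2-fold, with sums of 324 and 139 FPKM. Among all 12428 kept genes 6766 had a log2 ratio above 0, and 6.98% of the kept genes were at least 2-fold higher. The macrophage count was 3 with a pseudocount of 5, and 1 once the trend on GC content and length was removed, where the list median was 0.54 in place of 0.97. The stromal count was 1 with a pseudocount of 5.

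Each binding protein differed by less than the endothelial sum, though for Igfbp4 the gap lay within its counting error. Per summed endothelial FPKM, Igfbp7 was at 0.375 in the KO-labelled library, against 0.548 in WT, 0.685 times as high. The same measure was 0.683 for Igfbp3, 0.628 for Igfbp5 and 0.924 for Igfbp4. Per summed fibroblast, stellate-cell and pericyte FPKM the ratios between libraries were 0.841 for Igfbp7, 0.839 for Igfbp3, 0.772 for Igfbp5 and 1.14 for Igfbp4. Igfbp3, Igfbp5 and Igfbp7 were thus lower per marker sum on both of these lists. This holds for the sums and not for each marker. The lowest log2 ratio of an endothelial marker was 0.58, below Igfbp3 at 0.64 and Igfbp7 at 0.65. On the second list the lowest was 0.64, level with both. For Igfbp4 no direction can be read, since the counting interval of its ratio, 1.81 to 2.48, holds the ratios of both sums, 2.29 and 1.87. Per macrophage sum the ratios ran between 0.616 for Igfbp5 and 0.907 for Igfbp4, whose interval also holds the ratio of that sum, 2.34. The sum of the delta and PP cell markers was 1.63 times as high in the library labelled KO, and per that sum the ratios were nearest to 1 for Igfbp3 and Igfbp7, at 0.961 and 0.964, with 0.884 for Igfbp5 and 1.30 for Igfbp4. That nearness is of values as deposited. With the GC and length trend removed the median log2 ratio of these markers was 0.042, against 0.44 for Igfbp3, 0.63 for Igfbp5, 0.77 for Igfbp4 and -0.11 for Igfbp7. The part of these cells in the difference was not tested. In bulk RNA of islets, more or fewer cells of a type and more or less RNA per cell cannot be told apart.

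**Figure D3:**
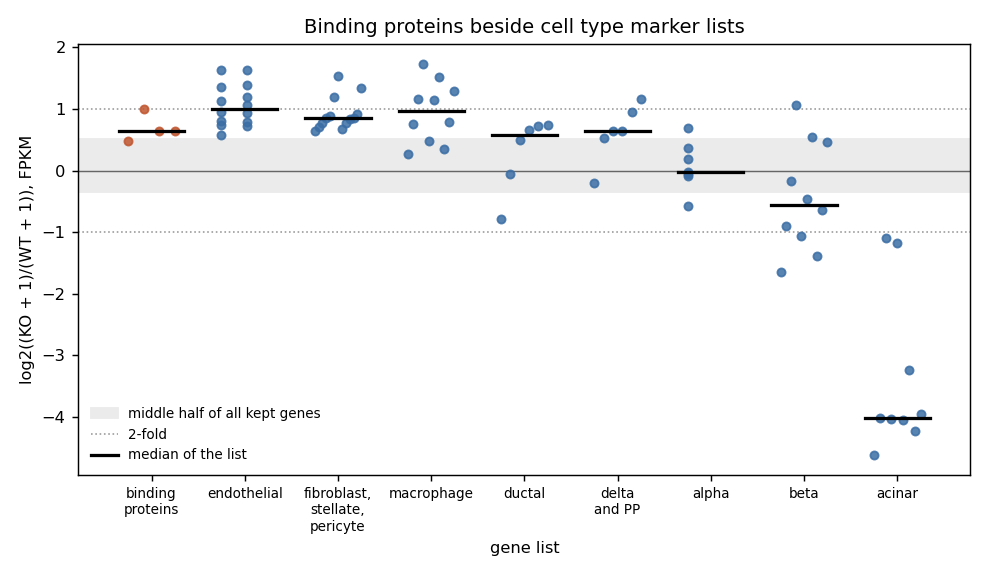
The log2 ratio on the FPKM + 1 scale, KO over WT, of the kept genes in each list, 1 point per gene, with the list median as a bar, the span between the quartiles of all kept genes shaded and 2-fold dotted. The 4 binding proteins have a median of 0.64, below the endothelial (1.00), macrophage (0.97) and fibroblast, stellate-cell and pericyte (0.85) medians, level with the delta and PP cell median (0.64), and above the ductal (0.58), alpha-cell (-0.026), beta-cell (-0.55) and acinar (-4.01) medians. All are as deposited, and the delta and PP cell median was 0.042 with the GC and length trend removed.

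Markers of endocrine and exocrine cells were read in the same way. The 10 β-cell markers had a median log2 ratio of -0.55, with Ins1 past 2-fold upwards and 3 past it downwards, and a summed level dominated by Ins1 and Ins2 of 437355 FPKM in the KO-labelled library, against 396668 FPKM in WT. The 7 alpha-cell markers were all within 2-fold, with a median of -0.026, and the 6 markers of delta and PP cells had a median of 0.64, with 1 at least 2-fold higher, or 0.042 and none with the GC and length trend removed. The 9 kept acinar markers were all at least 2-fold lower, against 3.88% of all kept genes. Their summed levels over 10 markers were 91.2 and 1455 FPKM, and the 8 ductal markers summed to 249 FPKM in each library. The part of these cells in the lower Irs2 and Igf1r was not tested.

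Other genes of insulin and IGF signalling were compared by list. Of 79 listed genes 74 were in the table and 64 were kept. In the library labelled KO 3 of these 64 passed 2-fold upwards and 3 downwards, against backgrounds of 6.98% and 3.88% of all kept genes. Both counts are near those shares and do not set the listed genes apart from genes in general. Their median log2 ratio was -0.080, against 0.077 for all kept genes. The higher genes were Ins1, the feedback inhibitor Socs3 and the ribosomal S6 kinase Rps6kb2, and the lower genes were Pdpk1, Pik3c2a and Eif4ebp2.

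Among PI3-kinase and lipid-phosphatase genes the 2 calls were both lower. Pdpk1, which encodes the AKT-activating kinase PDK1, was at 4.72 FPKM in the KO-labelled library, against 13.7 FPKM in WT, 2.90-fold lower (2.65 to 3.17). Pik3c2a, a class II PI3-kinase, was at 5.62 FPKM in the KO-labelled library, against 12.5 FPKM in WT, 2.22-fold lower (2.03 to 2.43), with an antisense gene, Gm44777, over 12.3% of its exon length. Pik3cd, a catalytic subunit abundant in leukocytes, had a ratio of 2.34 (1.92 to 2.88) and lay within 2-fold on the log2 scale with pseudocount. The 11 kept genes had a median of -0.34, or -0.13 with the GC and length trend removed, and both calls were lost with that trend removed and with a pseudocount of 5.

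Among substrates of AKT and mTOR the widest differences were opposite. Rps6kb2, a kinase that phosphorylates ribosomal protein S6, was at 51.2 FPKM in the KO-labelled library, against 14.0 FPKM in WT, a ratio of 3.65 (3.28 to 4.06). Ptprcap on the opposite strand covers 23.7% of its exon length, so this value is less certain. Eif4ebp2, a repressor of cap-dependent translation, was at 9.36 FPKM in the KO-labelled library, against 27.1 FPKM in WT, 2.89-fold lower (2.51 to 3.34). Gsk3b, a kinase that AKT inhibits, and Foxo3, a transcription factor that AKT excludes from the nucleus, had log2 ratios of -0.76 and -0.72 and lay within 2-fold. The list of 14 genes had a median of -0.10, or -0.35 with the trend removed.

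No gene of the AKT list or of the mTOR list passed 2-fold. Among the widest in the first were Trib3, a pseudokinase that binds AKT, at a log2 ratio of 0.79 with a ratio interval of 0.816 to 7.93 that included 1, and Phlpp2 and Phlpp1, phosphatases of AKT, at -0.42 and -0.25. In the second, Deptor, an inhibitor of mTOR, was at -0.77, the mTOR activator Rheb at -0.50, the complex subunit Mlst8 at 0.50 and Akt1s1, an mTORC1 inhibitor that AKT phosphorylates, at 0.36. Bricd5 covers 22.5% of the exon length of Mlst8 on the opposite strand. The 2 lists had medians of -0.13 over 7 genes and -0.083 over 11 genes, or -0.068 and -0.28 with the trend removed.

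Among adaptors and feedback genes 1 of 11 was called. Socs3, a cytokine-induced inhibitor that also blocks insulin receptor signalling, was at 16.1 FPKM in the KO-labelled library, against 6.94 FPKM in WT, a ratio of 2.32 (2.04 to 2.65), a call that was lost with a pseudocount of 5, with the trend removed and under both scalings to equal sums. Socs1, of the same family, was near the floor, at 1.28 and 0.547 FPKM in the same order of libraries. The receptor phosphatase Ptprf and the adaptor Sh2b1 had log2 ratios of -0.46 and 0.40, and the list median of 0.13 was -0.28 with the GC and length trend removed.

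The other binding proteins and the genes that act on them were within 2-fold, with a list median of 0.22, or -0.15 with the trend removed. Igfbp6, which prefers IGF2, was at 4.38 FPKM in the KO-labelled library, against 2.27 FPKM in WT, a ratio of 1.92 (1.35 to 2.75). As deposited Igfbp6 was thus higher, like the 4 described above, of which Igfbp7 turned lower with the trend removed. The log2 ratio of Igfbp6, 0.72, lay between the quartiles of genes over 54% GC (0.052 and 0.78), where its own GC content of 60.7% places it. Against genes of its own length it lay just above the upper quartile of 0.69. Its value with the trend removed is not reported here. Pappa2, a protease that cleaves Igfbp3 and Igfbp5, was at 19.8 FPKM in the KO-labelled library, against 27.9 FPKM in WT, a ratio of 0.710 (0.678 to 0.744). Igfals, which joins IGF and Igfbp3 or Igfbp5 in a stable complex in blood, was at 17.9 FPKM in the KO-labelled library, against 22.8 FPKM in WT, a ratio of 0.782 (0.707 to 0.865). The protease Htra1 had a ratio of 1.26 (1.01 to 1.59). Ins1 and Ins2, the ligands made in islets in vast excess, had log2 ratios of 1.06 and -0.46. The call of Ins1 was lost under each of the 3 other scalings and with the trend removed, and the genes are close copies between which reads may be split. In their list, which also holds Igf2r and Insrr, 1 gene was at least 2-fold lower with sums of 1000000 and 1 with the trend removed. None was as deposited.

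**Figure D4:**
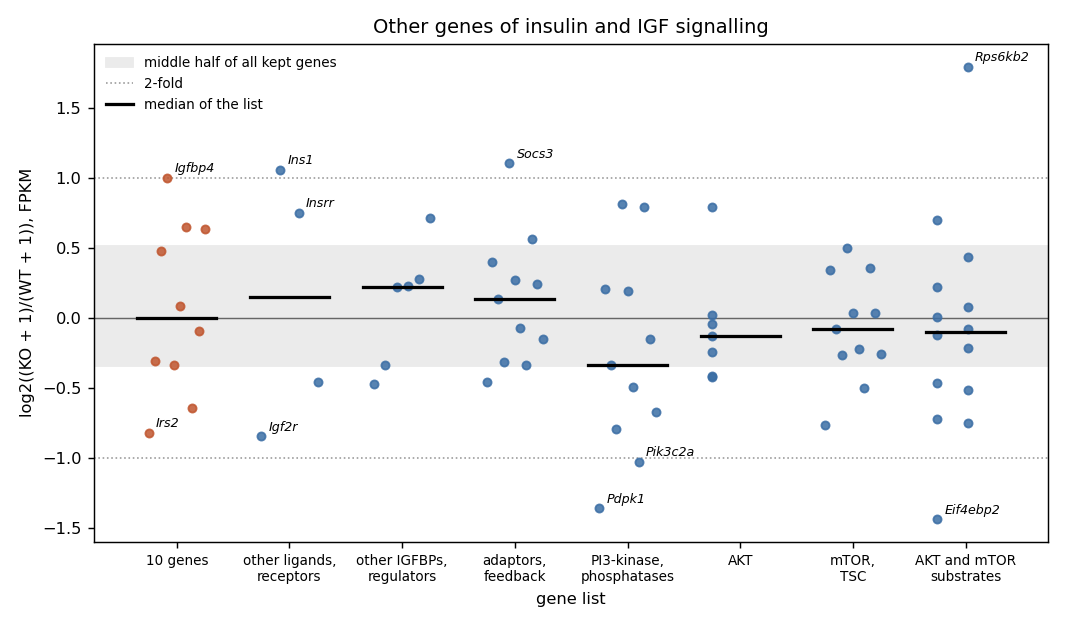
The log2 ratio on the FPKM + 1 scale, KO over WT, for the 10 genes and for 7 lists of other genes of insulin and IGF signalling, 1 point per kept gene, with list medians as bars, the span between the quartiles of all kept genes shaded and 2-fold dotted. Genes past 2-fold and Irs2, Igf2r and Insrr are named, and the list medians lie between -0.34 and 0.22.

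The 10 genes differ in length and base composition, and across all kept genes the difference between the libraries moved with both. Genes up to 1000 bases long, by the length implied by the values, had a median log2 ratio of 0.47, and genes over 8000 bases one of -0.20. By GC content of the longest coding transcript, the median was -0.30 up to 42% and 0.41 over 54%. Igf1r, Insr and Irs1 were the longest of the 10, at 12973, 9391 and 9163 bases, and Igfbp7 was the shortest, at 1213 bases. Against genes of their own length, Irs2 and Igf1r lay below the lower quartile, Igfbp3, Igfbp4 and Igfbp5 above the upper quartile, and the other 5 between the quartiles. Against genes of their own GC content, Irs2, Igf1r, Irs1, Akt2 and Igf2 lay below the lower quartile, Igfbp3 and Igfbp4 above the upper quartile, and Insr, Igfbp5 and Igfbp7 between them.

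Removal of a trend on GC content and transcript length left Irs2 at -0.99, percentile 3.06 of all genes, and Igf1r at -0.40. Irs1 stood at -0.12, percentile 41.6. The same step left Igfbp4 at 0.77, Igfbp5 at 0.63 and Igfbp3 at 0.44. It used annotated transcript lengths, which for Igfbp4 and Igfbp3 differ most from those implied by the values. Removal by the implied lengths was not tested. Igfbp7 turned to -0.11 and Insr moved to 0.45. The direction of Igfbp7 therefore depended on this step, while those of Igfbp3, Igfbp4, Igfbp5, Irs2, Igf1r, Irs1, Akt2 and Igf2 did not. Insr was at -0.049 with each library scaled to a sum of 1000000 and at -0.052 with equal sums without the 20 highest genes, so its direction also depended on scaling.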

How the data were processed

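RNA of 2 islet libraries, made with a SMARTER mRNA-Seq kit per the labels, was sequenced, KO and WT by their genotype labels, and the authors deposited FPKM values in a single table. Per the submitters' processing notes the genome was mm10 (GRCm38). The sources used here do not give aligner, counter, annotation or strand settings. Values were used as deposited. The ratio of library totals and the totals were found by search, and the smallest reads giving a whole gene length (multiples up to 50) were kept, within 1e-05 of a read plus 2e-09 of its number; the true reads may be a multiple, so intervals can be too wide. The search was tested on simulated data. Differences are log2 ratios with a pseudocount of 1 FPKM, for genes reaching 1 FPKM in any library, called at 2-fold. A count test was not run, since FPKM are not counts and there is no replicate. Named were Cgas, the 10 genes, up to 4 widest genes and every called gene of each pathway list, and for marker lists the sums and up to 3 of the most abundant genes; Akt1, Igf1 and the hormones were added after their values were seen, and 2 genes that the rule names are not reported here. Members and lists were chosen with earlier results of these data known. GC content and length came from GENCODE M21 transcripts, for 98.2% of kept genes, and the trend from lowess (fraction 0.3, 3 iterations; statsmodels 0.14.6). Intervals used scipy 1.17.1. Promoters came from RefSeq on GRCm38.p6 and matched 9 genes. Alternatives tried were other pseudocounts (0.1 and 5), dropping the floor or setting it at 5 FPKM, 3 scalings, removal of that trend and, for levels and ratios within a library, annotated transcript lengths.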

Additional observations from a re-analysis of the deposited data

How the results depend on the processing

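Directions held for 8 of the 10 genes under every alternative that gave them a value, the exceptions being Igfbp7 with the GC and length trend removed (-0.11) and Insr under 2 scalings. The count of the 10 genes at least 2-fold higher, 1 as reported, was 0 with a pseudocount of 5, under each of the 3 scalings and after removal of the trend; none was at least 2-fold lower in any setting. With a floor of 5 FPKM, which drops Irs1 and Igf2, the median log2 ratio of the 10 genes was 0.28. Scaling to a sum of 1000000 and to equal sums without the 20 highest genes moved the median of all genes by -0.12 and -0.13. Over all genes, 868 higher and 482 lower calls became 1556 higher with a pseudocount of 0.1, 305 higher and 181 lower with a pseudocount of 5, 796 lower with sums of 1000000, 576 higher and 724 lower with equal sums, and 394 higher with the trend removed. Higher genes made up 64.3% of calls as reported, 46.5% with sums of 1000000, 44.3% with equal sums, 52.0% with the median ratio and 52.7% with the trend removed. The cause of these changes was not tested. The ratios of Insr to Igf1r, Irs2 to Irs1, Akt2 to Akt1 and Igf1r to Igf2r between libraries did not change with annotated lengths in place of those implied by the values, by construction. The ratios within each library did move beyond their counting intervals for 3 of these 4 pairs, all but Irs2 to Irs1, and the values stand beside each ratio. No paired analysis was possible because each genotype has 1 library, and for the same reason no library could be left out. Depth limited Irs1 and Igf2, with 138 and 140 reads in the library labelled KO, more than the other genes.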

Other observations

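Several of the genes have a neighbour of the same pathway in the genome build GRCm38.p6. Ins2, at 182558 FPKM in the KO-labelled library, against 250577 FPKM in WT, lies 11.8 kb from Igf2 on chromosome 7, where Igf2 was at 1.92 and 2.12 FPKM. Igfbp5 lies 5.6 kb from Igfbp2 on chromosome 1, and Igfbp2 was at 0.0799 FPKM in the KO-labelled library, against 0.0304 FPKM in WT, under the floor, while Igfbp5 was at 10.8 and 7.47 FPKM. Igfbp3 lies 3.5 kb from Igfbp1 on chromosome 11, but Igfbp1 has no value. Both pairs with values differed widely in level in both libraries. Igf2 and Akt2 each have 4 annotated starts in the RefSeq promoter table, and the values per gene do not show which were used.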
